A study of Mus musculus with 6 samples.

Results

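Cytosolic ribosomal protein genes code for the proteins of the large (60S) and small (40S) subunits of the ribosome. Here they were taken by name: every array probe whose accession maps to a symbol that starts with Rpl or Rps and a digit, or to Rplp0, Rplp1, Rplp2 or Rpsa, without the S6 kinase genes, Rps19bp1 and pseudogenes marked as such. This gave 85 of the 20145 named genes on the array, 52 of the large and 33 of the small subunit, read by 172 of 55681 probes. A level that passed the filter on dim probes was available for 82 of the 85. The rule kept Rps4l, which RefSeq types as a transcribed pseudogene, and Rps23rg1, a retrogene copy of Rps23. Ribosomal protein genes with no probe under this mapping were not analysed here.

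The tested embryos came from C57BL/6N dams given phenobarbital, a barbiturate drug that strengthens the response of GABA-A receptors. The dose was 80 mg/kg, from 8 mg/mL in saline, injected into the abdomen in pairs of injections 6 h apart on embryonic days 10 to 11. Control dams of the same strain received saline on the same schedule, and no group carried a transgene or a mutation in the labels. The labels give the age of the embryos as E12.5 and the protocol as embryonic day 12. Their neocortex was broken up into cells, which were plated and gave up their RNA 4 h later. Each group holds 3 samples, hybridised singly to 1-colour Agilent arrays from 0.2 µg of RNA. Nothing in the labels ties the samples of a group to different litters or cultures, so a p-value here weighs a difference against sample spread that may be technical only. The comparison asks whether exposure of the embryo to phenobarbital changes RNA levels in neural progenitor cells of the cortex.

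A ribosome is built from nearly all of these proteins, and the genes are among the most strongly transcribed of any dividing cell. Their mRNAs usually start with a cytosine followed by a run of pyrimidines, the terminal oligopyrimidine (TOP) motif, through which the mTORC1 kinase and the protein Larp1 set their translation and stability together. Unassembled ribosomal proteins are degraded, and free Rpl5 and Rpl11 bind Mdm2, which links ribosome assembly to p53. Progenitors of the embryonic cortex divide fast and hold many ribosomes.

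The sequence around the start sites was searched for 2 short motifs, and 64 of the 85 genes have an entry in the RefSeq promoter table used here (build GRCm38.p6). The letters CTTTCC stood on the gene's own strand within 50 bases of the start in 20 of these 64 genes (31.2%), against 5.43% of the 27025 genes in the table. On the other strand the same letters were present in 3.12% of the ribosomal protein genes and 5.12% of all genes. The letters CCGGAAG, a core that ETS-family factors bind, were found on either strand in 21.9% of the ribosomal protein genes and 5.98% of all genes, and 6 genes held both motifs. The last 2 letters of CTTTCC can be the first 2 of CCGGAAG, so the 2 motifs can overlap. A match is a description of the sequence only. CTTTCC was sought anywhere within 50 bases on either side of the start, so a match need not be a TOP motif. The 30 bases around the start, 15 on each side, follow for 7 genes that the results turn on or that show the motif well, with CTTTCC in capitals. Rpl28 (chr7:4792950-4792979, plus strand) and Rpl7l1 (chr17:46782642-46782671, minus strand) were higher after phenobarbital. Rpl35 (chr2:39005117-39005146, minus strand) gave the highest signal of all members. Rpl38 (chr11:114668565-114668594, plus strand), Rps27 (chr3:90213634-90213663, minus strand), Rplp0 (chr5:115559452-115559481, plus strand) and Rpl39 (chrX:37085208-37085237, minus strand) were lower under the scaling used for the main test.
Rpl28: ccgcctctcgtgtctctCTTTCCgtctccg
Rpl7l1: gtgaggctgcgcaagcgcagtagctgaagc
Rpl35: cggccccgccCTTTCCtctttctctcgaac
Rpl38: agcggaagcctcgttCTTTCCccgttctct
Rps27: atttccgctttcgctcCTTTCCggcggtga
Rplp0: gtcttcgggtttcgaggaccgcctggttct
Rpl39: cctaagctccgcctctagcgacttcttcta
Of the genes in the promoter table, the motif was present within 50 bases of the start in 2 of 3 that rose, 10 of 43 that fell and 7 of 15 that did not pass the test. No test of the classes was made on these counts.

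Before any gene is read, the arrays themselves differed. The 75th percentile of the signal over non-control spots was 1840, 1853 and 1802 on the phenobarbital arrays and 1286, 1116 and 1200 on the control arrays (two-sided p = 0.1 by exact permutation, which 3 arrays against 3 cannot go below). All 3 phenobarbital arrays and control replicate 1 shared 1 slide and scan, while control replicates 2 and 3 each had a slide of their own. Between 62.8% and 68.7% of spots were well above background, and no spot outside the controls was saturated. All 12 cortical progenitor markers, among them Emx1, Pax6 and Sox2, were well above background on all 6 arrays. Their summed level, in multiples of each array's 75th percentile, was 421 to 499 on phenobarbital arrays and 523 to 582 on control arrays. The summed level of 10 red blood cell markers was 698 to 788 on phenobarbital and 1060 to 1732 on control arrays, that of 10 neuron markers 195 to 231 and 306 to 333, that of 10 endothelial markers 51.3 to 60.9 and 85.1 to 90.4, and that of 10 mural and meningeal markers 31.3 to 37.8 and 55.4 to 60.2. For 10 microglia markers the sums were 10.1 to 13.0 and 10.8 to 12.8, and for 8 choroid plexus markers 11.9 to 23.2 and 2.10 to 4.38, again phenobarbital and control. Of these microglia markers 4 fell and 1 rose in limma's test, at a median log2 fold change of -0.64, and the brightest, Csf1r (named after its values were seen), had 0.50 (adjusted p = 0.114). Of the choroid plexus markers 5 rose, Ttr most at 4.95, and Kcnj13 (-0.15), Aqp1 (-0.042) and Slc4a5 (0.052) did not pass. Of the endothelial markers 4 fell, while Pecam1 (0.71), Tek (0.71) and Tie1 (0.28) were positive and did not pass. These genes were named after their values were seen, and over all names 6.24% rose and 10.5% fell. No list had a marker below background on every array, and the part of cell makeup in the results on ribosomal protein genes was not tested. In such bulk samples, fewer cells of a type and less RNA per cell cannot be told apart.

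Ribosomal protein genes were lower as a group after phenobarbital once each array was scaled to its 75th percentile, and 4 genes of the large subunit went the other way. Of the 82 genes, 57 (69.5%) fell and 4 (4.88%) rose in limma's test with Benjamini-Hochberg adjustment over all 25304 names, and 21 did not pass. Over all names tested, 10.5% fell and 6.24% rose. The log2 fold change, phenobarbital minus control, was negative for 77 of the 82 genes, for 68% of all names and for 93.6% of the genes of similar signal defined below. Its median was -0.43 for the ribosomal protein genes and -0.16 for all names. The shift depended on the scaling: the members' median was -0.34, -0.39, -0.23 and -0.087 under the 75th percentile of detected probes, the median of all spots, the E1A control transcripts and genes of similar signal, and -0.0060 under quantile normalization, where 44 genes were negative and 38 positive. The number that fell was 26, 6, 0, 0 and 3 in the same order of settings, where 4.34%, 4.22%, 1.32%, 0.996% and 5.48% of all names fell, and 70, 61, 5, 9 and 7 at an unadjusted p under 0.05 in limma's fit, while the count of rises stayed between 3 and 5. The median of all names moved too, to -0.072, -0.12, 0.032, 0.18 and -0.067.

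**Figure D1:**
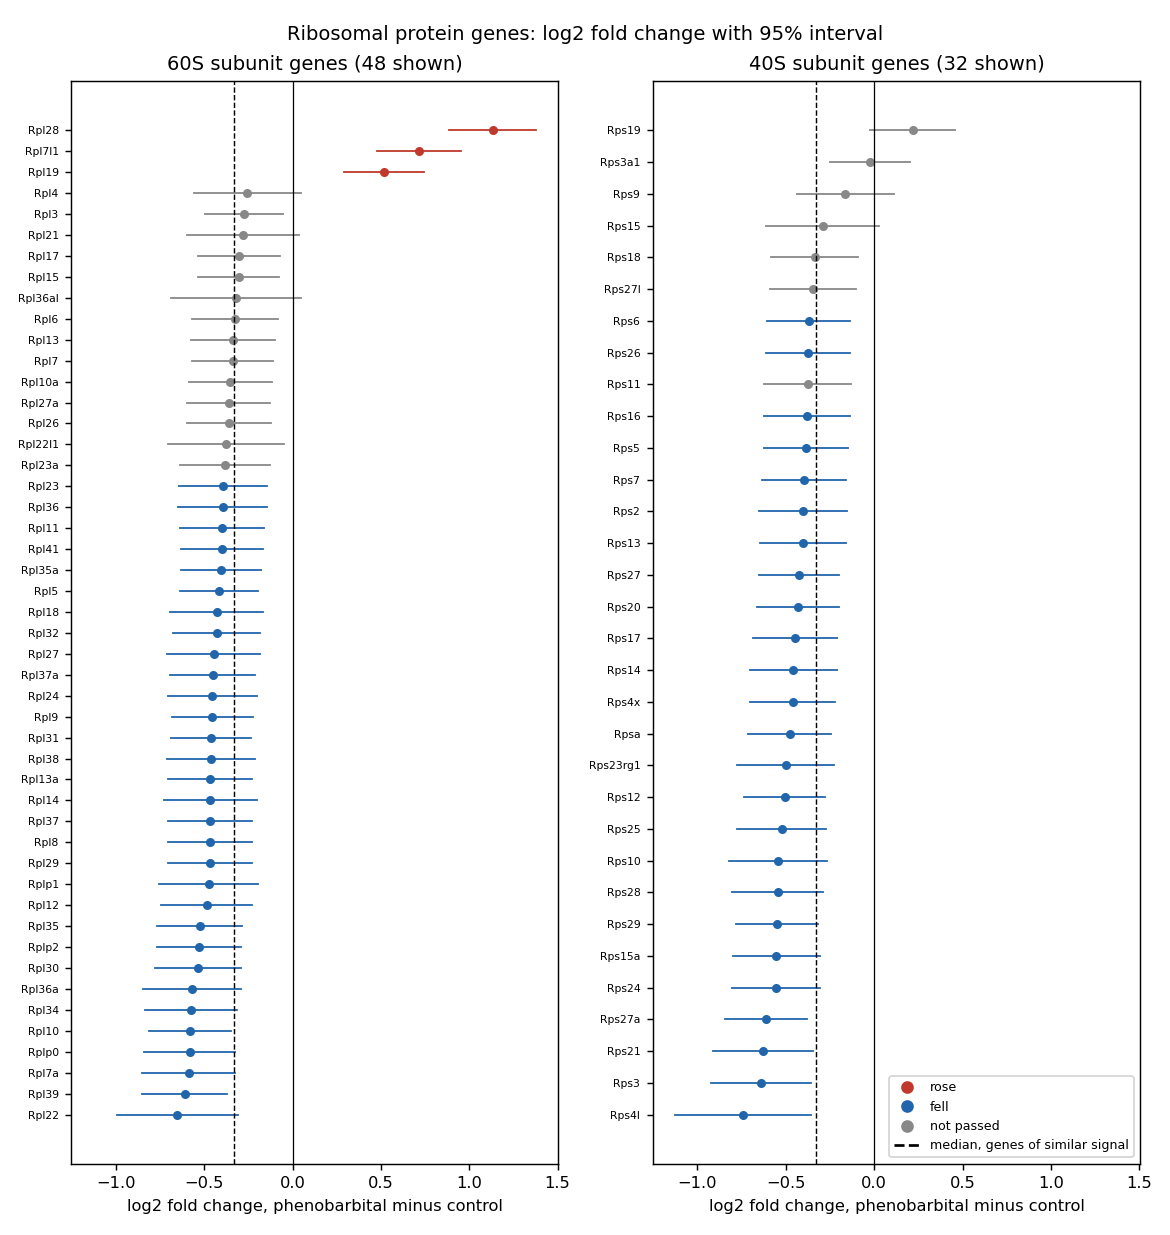
Log2 fold change, phenobarbital minus control, of 80 of the 82 tested ribosomal protein genes in limma's fit (points) with 95% intervals (bars), by subunit, under scaling to the 75th percentile; the dashed line is the median of 249 other protein-coding genes of similar signal. Rpl28, Rpl7l1 and Rpl19 lie above 0 with their intervals, and most of the others lie between -0.30 and -0.65; under quantile normalization 38 of the 82 are positive.

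The genes are bright, and bright genes as a class were lower. A signal in the top 5% of tested names was reached by 75 of the 82, at a median percentile of 99.0. When all names were ordered by signal and divided into 10 equal bins, the median log2 fold change ran from -0.057 in the dimmest to -0.33 in the brightest bin, which held 78 of the ribosomal protein genes and in which 27.5% of names fell and 1.86% rose. All 814 other names within the members' signal range (their 10th to 90th percentile) had a median of -0.39, and 44% of them fell. The 249 of these that are other protein-coding genes had a median of -0.33, 25.7% fell and 0 rose in limma's test (1 at an unadjusted p under 0.05), and the 565 without a protein-coding symbol had a median of -0.41. Probes without a symbol may read copies of ribosomal protein genes, so the 249 are used here as the genes of similar signal. These 249 were dimmer than the members, with array medians of 6.37 to 6.91 against 7.39 to 7.86 (log2, relative to the 75th percentile). The part of signal in the distance between these sets was not tested. The members' median was -0.43, beside -0.39 for all 814 names. The ribosomal protein genes lay 0.10 below the 249 on the log2 scale (a difference of medians of -0.10). A single factor per array cannot move this difference. It was -0.023 under quantile normalization, -0.11 with normexp and -0.12 to -0.079 with 1 replicate left out. No test was made of it, since members of 1 family share their source.

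**Figure D2:**
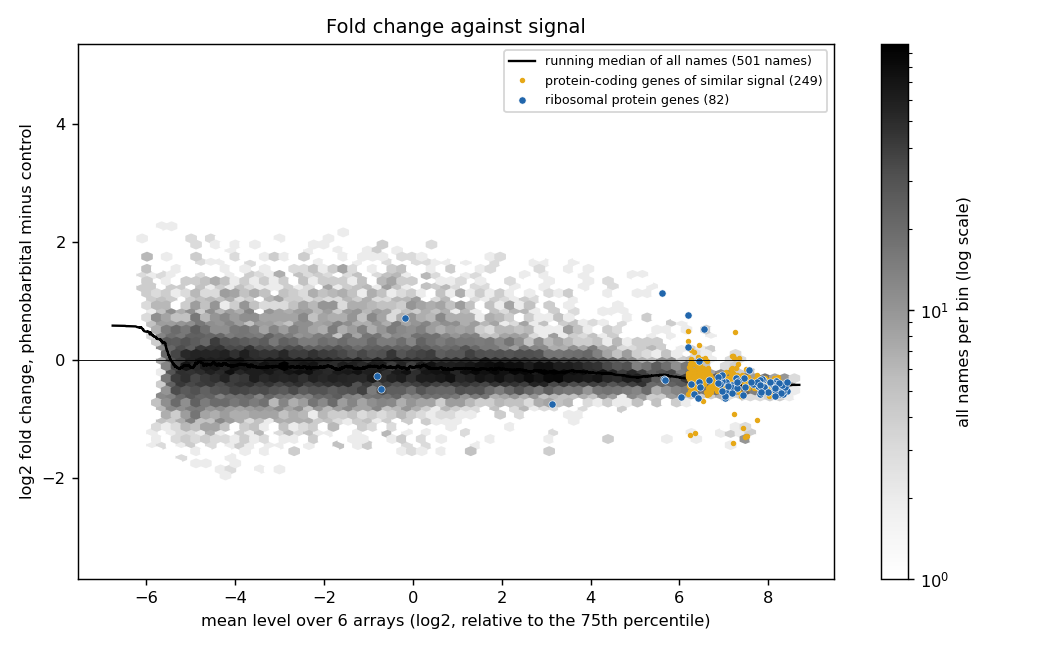
Log2 fold change, phenobarbital minus control, against the mean level over the 6 arrays (log2, relative to the 75th percentile) for all 25304 names (grey, darker for more names), with the running median in black, the 249 protein-coding genes of similar signal in orange and the 82 ribosomal protein genes in blue. The black line sinks as the signal grows, and most ribosomal protein genes lie along its bright end; the 4 that rose lie above it.

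The shift was present array by array. The median level of the 82 genes, in log2 relative to the 75th percentile, was 7.41, 7.52 and 7.39 on the phenobarbital arrays and 7.73, 7.86 and 7.77 on the control arrays. That of the genes of similar signal was 6.53, 6.61 and 6.37 on phenobarbital and 6.82, 6.80 and 6.91 on control arrays. Neither pair of groups overlapped. Without scaling, the ribosomal protein genes were brighter on the phenobarbital arrays: the median signal was 313624, 340050 and 302262 there, against 272941, 258360 and 261631 on the control arrays. The unscaled difference of the members was 0.18 on the log2 scale, beside 0.61 for the 75th percentile itself and 0.42 for 8 of the 10 E1A probes, which read control transcripts and were well above background on all arrays. Whether equal amounts of these transcripts were added to each sample is not given in the sources used here. The strongest spot of a member reached 593912, and the scanner's saturation value was 775862. A sign for the family therefore holds only relative to the scale chosen, and these arrays give no absolute amount of ribosomal protein mRNA.

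**Figure D3:**
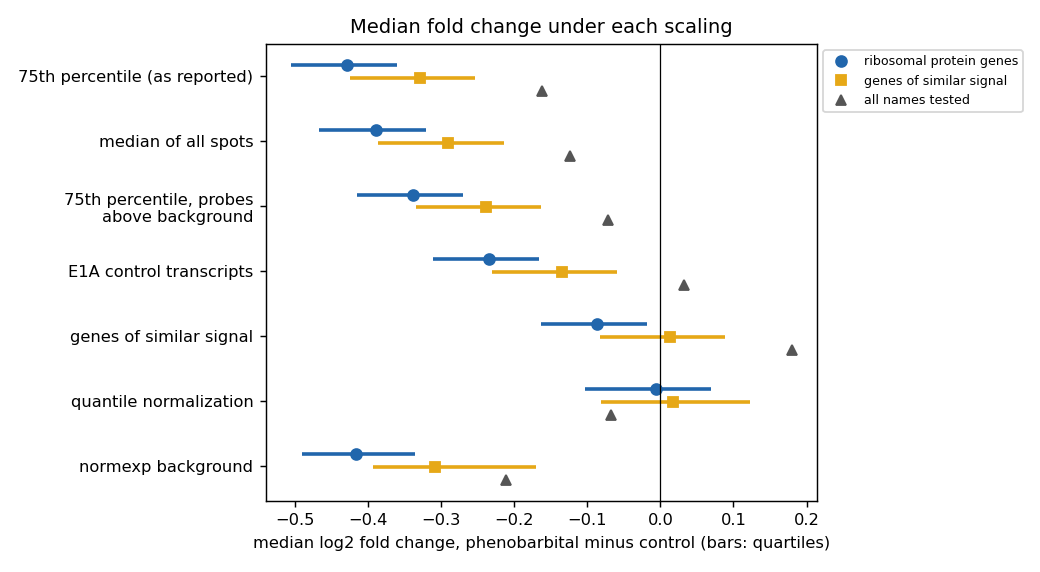
Median log2 fold change, phenobarbital minus control, of the 82 ribosomal protein genes (blue circles), the 249 genes of similar signal (orange squares) and all 25304 names (grey triangles) under 7 scalings or background corrections; bars run from the lower to the upper quartile. A single factor per array shifts blue and orange alike, so only quantile normalization and normexp could move them apart or together; they lie at -0.43 and -0.33 under the 75th percentile and at -0.0060 and 0.017 under quantile normalization.

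The medians of the subunits were close. Leaving out the 6 tested paralogues, the 46 large-subunit genes had 3 rises, 31 falls and a median log2 fold change of -0.44, and 12 did not pass. Of 30 small-subunit genes, 0 rose in limma's test (0 also at an unadjusted p under 0.05), 24 fell and 6 did not pass. Their median was -0.43, while that of all members under quantile normalization was -0.0060. The falls were small and even, from 1.29-fold to 1.67-fold lower, with adjusted p between 0.0145 and 0.0492. Only Rpl28 changed by 2-fold or more among the 82. All 3 phenobarbital arrays lay below all 3 control arrays for 73 of the 82 genes, and the reverse held for 5, against 32.4% and 11.7% of all names and 75.1% and 0.402% of the genes of similar signal. The groups overlapped for Rpl4, Rpl21, Rps3a1 and Rps9.

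Rpl28, a large-subunit protein that budding yeast lacks, showed the largest change. Its level on the scale above was 6.13, 6.20 and 6.19 on the phenobarbital arrays and 5.01, 5.16 and 4.95 on the control arrays. The log2 fold change was 1.13 (SE 0.10, 95% interval 0.89 to 1.38), a 2.19-fold rise with an adjusted p of 0.00334 in limma's fit. It passed the test in all 20 alternative settings, with log2 fold changes from 1.09 to 1.47. With the slide as a block it was 1.16 (adjusted p = 0.0331, limma), but that fit sets the 3 phenobarbital arrays against control replicate 1 alone, and the lone control is assumed to vary as the phenobarbital arrays do.

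Rpl19, a large-subunit protein that reaches across to the small subunit, had 6.86, 6.83 and 6.77 on phenobarbital and 6.28, 6.36 and 6.26 on control arrays, a log2 rise of 0.52 (SE 0.094, adjusted p = 0.0211, limma). Rpl7l1, a paralogue of Rpl7 known in human cells from particles on the way to the large subunit, gave a dim signal. It had 0.087, 0.23 and 0.24 on the phenobarbital arrays and -0.52, -0.58 and -0.49 on the control arrays, a log2 rise of 0.71 (SE 0.10, adjusted p = 0.0102, limma). The groups lie apart for both genes, and the spread within a group was 0.085 at most (SD, n = 3 each). The signs of both rises held in all 20 settings, and the test was passed in 16 of them by Rpl7l1 and 12 by Rpl19. With the slide as a block, adjusted p was 0.0961 for Rpl7l1 and 0.148 for Rpl19. Each of these rises, that of Rpl28 included, rests on 1 probe.

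**Figure D4:**
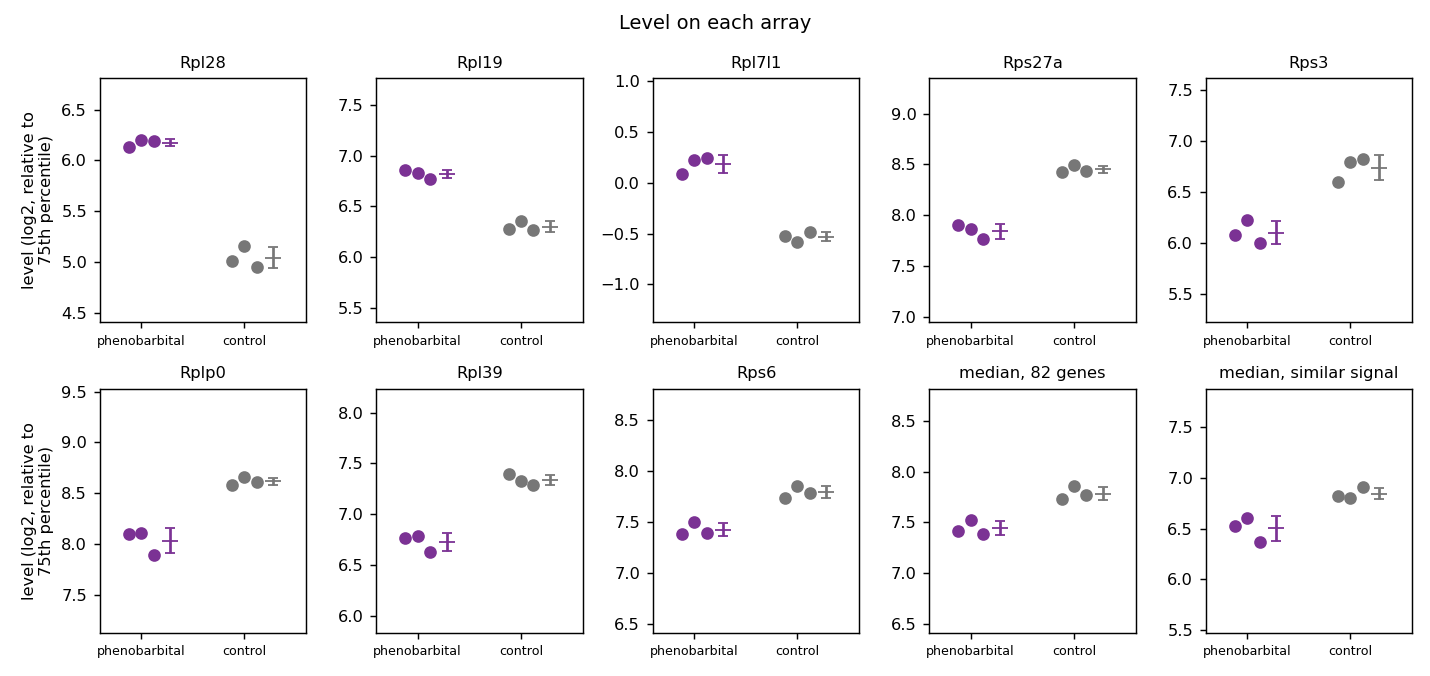
Level on each array (log2, relative to the 75th percentile; each panel spans the same range) for 8 ribosomal protein genes, the median of all 82 and the median of the 249 genes of similar signal; points are arrays, phenobarbital left and control right, and bars are the mean ± SD (n = 3 each). Rpl28, Rpl19 and Rpl7l1 are higher on all phenobarbital arrays, and the other 7 panels are lower on this scale, of which Rps6 and the median of the genes of similar signal turn positive under quantile normalization.

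Rps19, a small-subunit protein mutated in human Diamond-Blackfan anaemia and singled out after its values were seen, was the only gene with a positive value beside the 4 that rose. It had 6.34, 6.37 and 6.22 on phenobarbital and 6.14, 6.02 and 6.11 on control arrays. Its log2 fold change was 0.22 (95% interval -0.021 to 0.46, adjusted p = 0.169, limma), and it passed the test under quantile normalization (0.49, adjusted p = 0.0180) and under scaling to genes of similar signal (0.56, adjusted p = 0.0157). Rps3a1, another small-subunit protein, gave 6.38, 6.40 and 6.48 on phenobarbital and 6.42, 6.50 and 6.41 on control arrays. Its log2 fold change was -0.023 (95% interval -0.25 to 0.21), positive under 6 of the 20 settings, and the groups overlapped. Its second probe, of nearly the same signal, had -0.35 (adjusted p = 0.0828, limma over probes), so this value depends on the probe.

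Set against the median of the 82 genes on each array, which takes out any shift they share, the same genes stood apart. Rpl28 was higher by 1.48 on the log2 scale after phenobarbital, Rpl7l1 by 1.06, Rpl19 by 0.86, Rps19 by 0.56 and Rps3a1 by 0.32. At the low end, the differences to this median were -0.40 for Rps4l, -0.31 for Rpl22, -0.30 for Rps3, -0.29 for Rps21 and -0.27 for Rpl39. The groups did not overlap for any of these 10 genes, but nor did they for members near the median such as Rps6 (-0.028). The 10 were picked from the ends of the ranking, so the lack of overlap does not mark them out. Their values are a description with no test. Dimmer further probes had log2 fold changes of -0.11 for Rps3 and -0.28 for Rpl22, above the members' median of -0.43. Those of Rpl39 had -0.40 and -0.49. The place of Rps3 and Rpl22 at the low end therefore depends on the probe.

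The stalk proteins, which recruit elongation factors to the large subunit, fell on the scale of the main test. Rplp0, the base of the stalk, had 8.10, 8.11 and 7.89 on the phenobarbital arrays and 8.58, 8.66 and 8.61 on the control arrays, a log2 fold change of -0.58 (SE 0.11, adjusted p = 0.0215, limma). Its partners Rplp1 and Rplp2 had log2 fold changes of -0.47 (SE 0.12) and -0.53 (SE 0.10). All 3 were lower on every phenobarbital array than on any control array, and none changed sign in the 20 settings. The same lack of overlap held for all 57 members that fell and for 75.1% of the genes of similar signal.

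Among the other large-subunit genes, Rpl39, a small protein at the peptide exit tunnel, had 6.77, 6.78 and 6.63 on phenobarbital and 7.40, 7.32 and 7.29 on control arrays. Its log2 fold change was -0.61 (SE 0.10, adjusted p = 0.0160, limma). Rpl10, which in yeast joins the subunit late and is needed before it can pair with the small one, had a log2 fold change of -0.58 (SE 0.10), Rpl7a one of -0.59 (SE 0.11) and Rpl22, an RNA-binding protein with a paralogue, one of -0.65 (SE 0.14). Rpl35, near the exit tunnel, had 8.17, 8.23 and 8.11 on phenobarbital and 8.60, 8.73 and 8.75 on control arrays, a log2 fold change of -0.52 (SE 0.10). These 5 fell under the main scaling and stayed negative in all settings. Further probes of Rpl10, of nearly the same signal, had -0.27 and -0.28, and a dimmer one of Rpl22 had -0.28. None of these passed (adjusted p = 0.135, 0.0903 and 0.131, limma over probes). Whether Rpl10 and Rpl22 pass therefore depends on the probe. Rpl5 and Rpl11, the partners of 5S RNA that bind Mdm2, had smaller values of -0.41 (SE 0.092) and -0.40 (SE 0.10), and Rpl11 was positive under quantile normalization at 0.054. Rpl3, which lies close to the site of peptide bond formation, did not pass at -0.27 (95% interval -0.50 to -0.054, adjusted p = 0.0849, limma) and was positive under quantile normalization (0.11) and under scaling to similar signal (0.067).

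In the small subunit, Rps27a, made as a fusion with ubiquitin, gave the smallest p of the falls. It had 7.90, 7.86 and 7.76 on phenobarbital arrays and 8.43, 8.49 and 8.43 on control arrays, a log2 fold change of -0.61 (SE 0.10, adjusted p = 0.0145, limma). Rps3, at the mRNA entry channel, had 6.08, 6.22 and 6.00 on phenobarbital and 6.60, 6.79 and 6.83 on control arrays, a log2 fold change of -0.64 (SE 0.12). Both genes were lower on every phenobarbital array than on any control array, as were all 57 members that fell. A dimmer further probe of Rps3 had -0.11 and did not pass (adjusted p = 0.489, limma over probes). The log2 fold change was -0.63 for Rps21, -0.56 for Rps24, -0.55 for Rps15a and Rps29 and -0.51 for Rps12, all small-subunit proteins, and -0.46 for Rps14, whose loss of 1 copy is known from human 5q- syndrome. All of these fell and kept their sign in the 20 settings. Rps6, the target of S6 kinase downstream of mTORC1, fell under the main scaling. It had 7.38, 7.50 and 7.39 on phenobarbital and 7.74, 7.86 and 7.79 on control arrays, a log2 fold change of -0.37 (SE 0.10, adjusted p = 0.0482, limma), which was 0.11 under quantile normalization. Rpsa, also known as a laminin receptor, had -0.48 (SE 0.10).

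Of the paralogues, 5 could be set against their partners, as the difference of the pair's log2 levels on each array. Rpl7l1 rose against Rpl7 by 1.05 on the log2 scale, since Rpl7 itself had -0.34 (0.13 under quantile normalization). Rpl22l1, which replaces Rpl22 in some cells, was higher relative to Rpl22 by 0.27, and Rpl36al relative to Rpl36a by 0.25. In these 3 pairs the differences did not overlap between groups, and the exact permutation p was 0.1 each, the smallest possible, or 0.167 after adjustment over the 5 pairs. Rps4l had -0.28 relative to Rps4x and Rps27l 0.078 relative to Rps27, with overlapping groups (exact permutation p = 0.2 and 0.3). The pair of Rpl22l1 used the brightest Rpl22 probe, at -0.65. A dimmer Rpl22 probe had -0.28, so the sign of this difference depends on the probe. On their own, Rpl22l1 (-0.38, adjusted p = 0.102), Rpl36al (-0.32, adjusted p = 0.187) and Rps27l (-0.35, adjusted p = 0.0617) did not pass limma's test. Rpl36al was positive at 0.025 under scaling to similar signal. Rps4l had the lowest value of all members, -0.74 (SE 0.16, adjusted p = 0.0309, limma). The paralogues known for expression in testis or muscle gave no tested level: Rpl3l and Rpl39l were above background on 0 of 6 arrays, and the better of the 2 Rpl10l probes on 2.

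The 3 dimmest tested members were Rpl7l1, Rps23rg1 and Rpl21, with mean signals between 846 and 1315. Rps23rg1 averaged -0.97 ± 0.062 on phenobarbital and -0.47 ± 0.14 on control arrays (SD, n = 3 each), a log2 fold change of -0.50 (SE 0.11, adjusted p = 0.0349, limma). Rpl21 had a log2 fold change of -0.28 (95% interval -0.60 to 0.037), positive at 0.062 under scaling to similar signal, with overlapping groups. Among the members, the Spearman correlation of signal with log2 fold change was -0.30 over 82 genes that share the arrays. The 28 members under a signal of 200000 had a median of -0.37 and the 54 above it one of -0.45.

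Where a gene had more than 1 probe, most further probes had the sign of the brightest. A second or further probe passed the filter for 50 genes, 85 probes in all. Of these 74 had the sign of the gene's brightest probe, 60 lay within 0.2 of it on the log2 scale, and the median absolute difference was 0.10. A shared sign says little here, since 68% of all names and 93.6% of the genes of similar signal were negative. In limma's fit over 34673 probes, 37 of the 85 fell and 4 rose, against 8.74% and 6.97% of all probes. Of 30 genes that fell and had another probe, 24 had all other probes negative.

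The 4 further probes that rose belong to genes whose brightest probe was negative. For Rps15, the second probe had 5.55, 5.42 and 5.39 on phenobarbital and 4.12, 4.05 and 4.03 on control arrays, a log2 fold change of 1.38 (SE 0.10, adjusted p = 0.00225, limma over probes). The brightest Rps15 probe had -0.29 (the 95% interval of the gene's fit includes 0), which was 0.096 under quantile normalization, so the direction of this gene depends on the probe. The others include probes of Rpsa (0.97, adjusted p = 0.0454) and Rpl7a (0.76, adjusted p = 0.0127), each beside at least 1 probe of the same gene that was negative. In all 11 further probes were opposite in sign to the brightest. Those of Rps2, Rps18, Rpl8, Rps15a, Rps27a, Rpl13a and Rpl27a were positive and did not pass (0.44, 0.35, 0.30, 0.26, 0.057, 0.050 and 0.0052); Rps2, Rps18 and Rpl27a were named after their values were seen. For Rps2 the groups overlapped, and control replicate 2 lay lowest at 5.75, against 6.82 to 7.08 on the other 5 arrays. Ribosomal protein genes have many near-identical processed copies in the genome, and probe sequences were not used here, so which transcripts each probe reads is uncertain for all members.

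**Figure D5:**
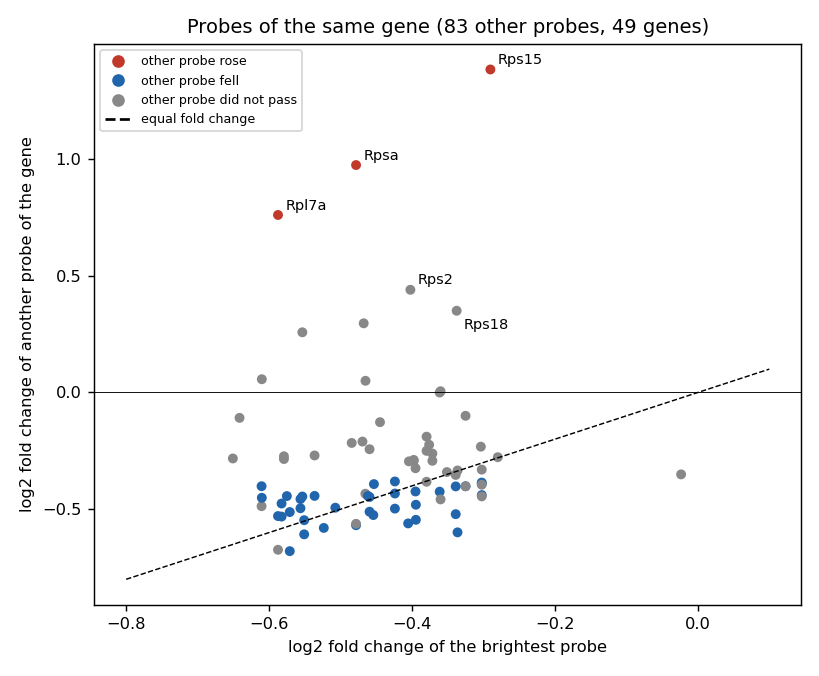
Log2 fold change, phenobarbital minus control, of each further probe of a gene against that of its brightest probe, for 83 of the 85 probes, in 49 ribosomal protein genes; red and blue mark further probes that rose or fell in limma's fit over all probes, and the dashed line is equality. Most points lie near the line below 0, and the probes of Rps15, Rpsa and Rpl7a that rose lie above 0.

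Genes that work with the ribosome did not all share the shift, and their counts stand beside 6.24% of all names that rose and 10.5% that fell. Their median log2 fold changes stand beside -0.16 for all names. Of 17 elongation factors and other genes with TOP mRNAs, 2 rose and 7 fell, with a median of -0.35 and signals at a median percentile of 97.0. Tpt1, a classic TOP mRNA, had 8.06, 8.05 and 8.03 on phenobarbital and 8.52, 8.68 and 8.61 on control arrays, a log2 fold change of -0.56. Fau, which codes for a ubiquitin-like protein fused to a small-subunit protein, had -0.53, and Rack1, a scaffold on the small subunit, -0.39 (0.058 under quantile normalization). Eef1g, a subunit of the factor that reloads elongation factor 1A, rose by 1.19 on the log2 scale and Eif5a, which helps peptide bonds form, by 1.27, both with groups apart.

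Of 28 initiation factors, 2 rose, 2 fell and 24 did not pass, shares near or below those over all names. Their median of -0.26 was lower than the -0.16 of all names, but their signals lay at a median percentile of 93.2. The brightest bin of all names had a median of -0.33. Eif3b and Eif3i, which bind each other within initiation factor 3, rose by 1.46 (SE 0.15) and 1.05 (SE 0.12) on the log2 scale. Eif1, which guards start codon choice, had -0.61, and Eif3h -0.46, which was 0.037 when a gene's probes were averaged. Eif3b passed the test in all 20 settings and Eif3i in 19.

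Among 58 nucleolar factors that build ribosomes, 8 rose, 2 fell and 48 did not pass, at a median of -0.029. Wdr74, known in human cells for large-subunit RNA processing, had 1.89, 1.76 and 2.06 on phenobarbital and -0.22, -0.70 and -0.10 on control arrays, a log2 rise of 2.24 (SE 0.18, adjusted p = 0.00275, limma). Bms1, a GTPase of small-subunit assembly, rose by 1.61, Nop16 by 1.53 and Rcl1, the partner of Bms1 in yeast, by 1.22. These 4 passed in all 20 settings, and their signals lie near the middle of the range of all names. The 2 that fell, named after their values were seen, were the bright genes Npm1 (-0.54) and Utp6 (-0.43). Of 21 genes of RNA polymerase I, which makes ribosomal RNA, and its factors, Polr1b (0.99) and Taf1c (0.90) rose. Myc (-0.44), Taf1d (-0.42) and Polr2k (-0.51), the last named after its value was seen, fell. The median of the 21 was -0.079.

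Of 27 genes of mTORC1 and its regulators, 3 rose and 1 fell, at a median of -0.28. The kinase Mtor had 0.078, -0.020 and 0.058 on phenobarbital and -0.79, -0.68 and -0.68 on control arrays, a log2 rise of 0.76 (SE 0.10, adjusted p = 0.00807, limma). Rps6kb2, an S6 kinase, rose by 1.43 and Deptor, an inhibitor within the complex, by 0.72, and Sesn2, which holds mTORC1 back when leucine is short, had -0.62. Of the 20 settings, Mtor passed the test in 18, Rps6kb2 in 14, Deptor in 9 and Sesn2 in 7. The 19 genes of ribosome surveillance and the p53 response had a median of -0.25. Of these Trp53 rose by 1.26 (SE 0.14), while Mdm2, which removes p53, had -0.37 and Bbc3, a p53 target that promotes cell death, -0.52. Trp53 passed the test in all 20 settings, Bbc3 in 6 and Mdm2 in 4. Over the 170 genes of these 6 lists, 18 rose and 17 fell under the main scaling, where 6.24% of all names rose and 10.5% fell. Under quantile normalization 22 rose and 1 fell, beside 6.29% and 5.48% of all names. With scaling to genes of similar signal 29 rose and 0 fell in limma's test, and 0 fell at an unadjusted p under 0.05, beside 10.6% of all names that rose and 0.996% that fell.

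The falls of the ribosomal protein genes also rested on the full set of arrays. With the slide as a block, which leaves only the slide that holds both groups, the members' median was -0.40 with 77 of 82 negative, 0 fell and 1 rose, Rpl28 (34 fell and 4 rose at an unadjusted p under 0.05, limma). In that fit 2.4% of all names rose and 0.644% fell, against 6.24% and 10.5% in the full fit. Without phenobarbital replicate 1 or 2 or control replicate 1, 0 genes fell in limma's test, and 66, 71 and 67 fell at an unadjusted p under 0.05. Of all names 1.81%, 0.869% and 0.941% fell in these 3 fits. Without phenobarbital replicate 3, 3 genes fell (2.04% of all names), without control replicate 3, 2 genes (3.15%), and without control replicate 2, 41 genes (10.2%). The median stayed between -0.46 and -0.38 in these 6 fits, and at least 76 of the 82 genes remained negative in each. At an unadjusted p under 0.05, 75 of the 82 genes passed in the full fit.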

How the data were processed

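Per the file headers, the authors read the scanned arrays with version 10.7.3.1 of Agilent Feature Extraction, given as 10.7 in the submitters' processing notes. The headers name mm9 as the build of the array annotation. The authors deposited a linear intensity per spot, from which the software had taken local background and spatial trend, and which was not scaled between arrays. The deposited flags mark spots as outlier, saturated or well above background. The authors' value table holds log2 values, as set against the scanner files, in which differences between arrays equalled those of the processed signals to within 1.26e-06 for 99% of probes after 1 factor per array was removed. Its direction and scale are settled by this, and the constant on which each probe is centred stays unknown. Its column medians were -0.02, -0.09 and -0.08 in phenobarbital replicates 1 to 3 and 0.08, 0.10 and 0.09 in control replicates 1 to 3.

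Of 62976 spots per array, 59305 were not controls. The level of a spot was the log2 processed signal less the 75th percentile of its array, taken over them, with 98 to 198 outlier spots per array set to missing and replicate spots averaged. The filter on dim probes asked for 1 group with all its arrays well above background, and for 2 or more values in each group (34673 of 55681 probes passed). Names came through accessions in a RefSeq gene table (GRCm38.p6), held for 26582 probes, and probes without one went by the name in the file. Each name was tested on its brightest probe, and 15181 of the 25304 names were gene symbols.

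The comparison used limma 3.58.1 (lmFit, eBayes) under R 4.3.3, without covariates, two-sided, with Benjamini-Hochberg adjustment over all names and a threshold of 0.05. On simulated data with the spreads of these 25304 names, the fit called 42 of 100 names given a log2 change of 1, 84 of 100 given one of 2, and 9 unchanged names. Each name was drawn on its own, with no shift shared across an array, so these counts do not carry over to the real arrays. Replicates correlated at 0.993 to 0.996 (phenobarbital) and 0.983 to 0.996 (control) across names, which are not independent replicates. Precision is limited by the number of arrays.

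The members and gene lists were chosen with earlier results of these data known. Named were up to 12 members past the threshold per direction by smallest p, the 3 brightest and 3 dimmest, paralogues and partners, the stalk proteins, Rpsa, Rps6, Rpl5, Rpl11, Rps3 and Rack1, genes with probes of opposite sign of which 1 passed, and up to 4 genes past the threshold per related list. Not every gene so chosen is given in the text, and some results are not reported here. Alternatives changed the scaling, background correction (normexp, for which median spot signals were taken, since no column of means is given), dim-probe filter, outlier spots, choice of probes, variance prior and value source, set the slide or the replicate number as a block, or left 1 replicate out. Scaling to E1A control probes was added after the data were seen.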

Additional observations from a re-analysis of the deposited data

How the results depend on the processing

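Counts, medians and named genes were computed under 20 alternatives; the probe-level fit, paralogue pairs, values relative to the members' median, motif counts and marker sums were not. The members' falls numbered 57 as reported, and 3 under quantile normalization, 6 with the median of all spots, 26 with the 75th percentile of probes above background, 0 when scaled to genes of similar signal or to E1A controls (9 and 5 at an unadjusted p under 0.05, limma), 4 without the filter on dim probes, 37 with the slide as a random block, 0 with it as a fixed block and 0 to 41 when 1 replicate was left out. Rises numbered 4 as reported, 1 with the slide as a block and 1 to 4 with 1 replicate left out. The members' median of -0.43 became -0.0060 under quantile normalization, -0.34 with the 75th percentile of probes above background, -0.087 under scaling to similar signal and -0.23 under E1A scaling, and ran from -0.46 to -0.38 with 1 replicate left out. Their distance to genes of similar signal, -0.10 as reported and fixed under any single factor per array, was -0.023 under quantile normalization and -0.12 to -0.079 with 1 replicate left out.

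Calls over all names numbered 4234 as reported, 2504 with the median of all spots, 2686 with the 75th percentile of probes above background, 1854 with E1A, 6539 with normexp, 1486 without the filter, 771 with the slide as a block and 877 to 4462 with 1 replicate left out. The split turned with the scaling: 1580 rose and 2654 fell as reported, 1591 and 1387 under quantile normalization, 1436 and 1068 with the median of all spots, 1587 and 1099 with detected probes, 2688 and 252 under scaling to similar signal, and 1521 and 333 with E1A. Calls in the related lists numbered 35 as reported, 23 under quantile normalization, 21 with the median of all spots, 18 with E1A, 15 without the filter, 53 with trend and robust eBayes, 12 with the slide as a block and 12 to 32 with 1 replicate left out. The causes were not tested.

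Log2 fold changes that turned positive under quantile normalization were Rpl3 0.11, Rpl7 0.13, Rps27 0.051, Rpl26 0.030, Rps3a1 0.28, Rps6 0.11, Rpl11 0.054, Rps15 0.096 and Rack1 0.058. Under scaling to similar signal they were Rpl21 0.062, Rpl36al 0.025, Rpl3 0.067, Rpl7 0.0032, Rps3a1 0.32 and Rps15 0.052. Rps3a1 was also positive with the median of all spots (0.016), the 75th percentile of detected probes (0.067) and E1A (0.17), and ran from -0.052 to 0.0064 with 1 replicate left out (positive without control replicate 2). With a gene's probes averaged, Rps15 was 0.55 (adjusted p = 0.0211, limma) and Eif3h 0.037.

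Deviations of same-numbered arrays correlated at 0.079, -0.16 and -0.35, and those of differently numbered arrays at -0.23 to 0.33. With 3 arrays per group, these values cannot settle whether the replicate numbers pair the samples. With the replicate number as a block, limma called 295 of all names, 7 genes of the related lists, and among the members 1 rise and 0 falls (62 at an unadjusted p under 0.05).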
